A study of Mus musculus with 12 samples.

Results

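The genes described here are the CD28 family and the inhibitory checkpoint receptors of mouse CD4 T-blast cells. They were chosen by name as *Cd28*, *Icos*, *Ctla4*, *Pdcd1*, *Btla*, *Lag3*, *Havcr2*, *Tigit*, *Cd200* and *Cd5*, which are 10 of the 24439 gene names measured by RNA-Seq. All 10 were among the 12442 genes tested, and none was at 0 in any library. T-blast cells (TB) were grown from CD4 T cells taken with CD4 beads from the spleens of C57BL/6 C42 mice, a line backcrossed to C57BL/6J that carries a fragment of the human *IL3/CSF2* locus and was used for every group. The cells were activated with 2 µg/ml Concanavalin A for 40 h and then expanded in 50 U/ml IL-2. The 4 groups of 3 cultures were cells kept in IL-2 (TB IL-2), cells without IL-2 for their last 16 h (TB IL-2nil), and both kinds of cells after 2 h with phorbol myristate acetate and a calcium ionophore (PMA/I), named TB+ IL-2 and TB+ IL-2nil. PMA/I acts downstream of the T cell receptor and of CD28 itself, and no source used here says whether the 3 cultures of a group came from separate mice, so P-values measure the spread between these cultures.

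T cells need a signal from the antigen receptor and a second, costimulatory signal to respond fully. CD28, the founding receptor of its family, gives that second signal when it binds CD80 or CD86, and ICOS, which binds ICOS ligand, sustains it in activated cells. Activated T cells also express receptors that restrain them. CTLA-4 competes with CD28 for the same ligands, PD-1 (encoded by *Pdcd1*) recruits phosphatases after binding PD-L1 or PD-L2, and BTLA, LAG-3, TIM-3 (encoded by *Havcr2*) and TIGIT bind further ligands on other cells. CD5 dampens antigen receptor signals from within the T cell, and CD200 is a surface glycoprotein whose receptor restrains the cell that carries it.

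The placement of 2 libraries bears on all that follows. Transcripts of *Il2*, a cytokine gene that PMA/I switches on in T cells, stood at 1368 FPKM in the library labelled TB IL-2nil replicate 3 and at 0.290 FPKM in the library labelled TB+ IL-2 replicate 3. The other TB libraries had 0 to 1.18 FPKM and the other TB+ libraries 1095 to 2374 FPKM, so that both libraries went against their labels. In the expression values published for these cultures, both libraries stand under each other's name, where for each of the 12 libraries 100% of 1391 genes lay within 0.1% of the deposited value after quantile normalization. Both were placed in each other's group in the same way here. The library labelled TB+ IL-2 replicate 3 is thus called TB IL-2nil replicate 3 below, and the library labelled TB IL-2nil replicate 3 is called TB+ IL-2 replicate 3. Each comparison is also given with both as labelled and with both left out.

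Levels are given in TPM, the share of a library's transcripts that a gene takes once its length is allowed for, after scaling every library to a common upper quartile. The steps between low values put the depth of the libraries within a factor of 3.05, with TB IL-2nil replicate 2 the shallowest at 0.409 times the median. Read counts were not used here, so no counting error can be given. The 7 markers of CD4 T cells summed to between 2291 and 3040 TPM in every library. Markers of other cells summed to 2.36 to 29.6 TPM for B cells (4 of 5 in the files), 6.91 to 31.9 TPM for CD8 T cells (2 genes) and 1.78 to 5.07 TPM for myeloid cells (6 genes, with *Lyz2* at 0 in both TB+ groups). The 3 markers of NK cells reached 0.303 TPM at most, with *Ncr1* at 0 in every library.

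Several of these genes lie close together in the genome (mm9, GENCODE M1 gene models). *Cd28* (chr1:60773644-60830203), *Ctla4* (chr1:60943844-60972676) and *Icos* (chr1:61034771-61057164) follow each other on the plus strand of chromosome 1, with gaps of 113.6 kb and 62.09 kb between them. *Pdcd1* (chr1:95934884-95949130, minus strand) lies much farther along the same chromosome. On chromosome 16, *Btla* (chr16:45224428-45253008, plus strand) and *Cd200* (chr16:45382248-45409166, minus strand) are 129.2 kb apart, and *Tigit* (chr16:43648974-43664297, minus strand) lies 1560 kb before *Btla*. The others are *Lag3* (chr6:124854379-124861723, minus strand), *Havcr2* (chr11:46268437-46294757, plus strand) and *Cd5* (chr19:10792633-10813464, minus strand).

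PMA/I raised 5 of the 10 receptors past 3-fold with IL-2 and 4 without it (limma, adjusted P under 0.05). The shares over all genes were 3.94% and 7.78%. *Pdcd1*, *Havcr2*, *Btla* and *Cd200* were past 3-fold in both comparisons, for which no share over all genes was taken. The 250 bases before their RefSeq start are shown because these genes rose together in both comparisons. The sequences are those of RefSeq for GRCm38.p6, and each was found exactly once on its mm9 chromosome, at chr1:95949131-95949380 (minus strand) for *Pdcd1*, chr11:46268183-46268432 (plus strand) for *Havcr2*, chr16:45224200-45224449 (plus strand) for *Btla* and chr16:45409167-45409416 (minus strand) for *Cd200*. They are written 5′ to 3′ in the direction of the gene, and capitals mark matches to the motifs named after them.
Pdcd1: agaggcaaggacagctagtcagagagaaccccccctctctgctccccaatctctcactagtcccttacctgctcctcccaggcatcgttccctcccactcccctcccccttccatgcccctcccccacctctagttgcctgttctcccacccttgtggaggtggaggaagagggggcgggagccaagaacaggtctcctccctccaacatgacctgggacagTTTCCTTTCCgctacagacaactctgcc
Havcr2: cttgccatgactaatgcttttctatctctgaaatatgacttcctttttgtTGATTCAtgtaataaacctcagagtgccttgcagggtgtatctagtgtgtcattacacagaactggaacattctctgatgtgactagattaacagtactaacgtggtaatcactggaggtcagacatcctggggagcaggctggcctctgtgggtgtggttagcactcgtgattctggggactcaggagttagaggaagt
Btla: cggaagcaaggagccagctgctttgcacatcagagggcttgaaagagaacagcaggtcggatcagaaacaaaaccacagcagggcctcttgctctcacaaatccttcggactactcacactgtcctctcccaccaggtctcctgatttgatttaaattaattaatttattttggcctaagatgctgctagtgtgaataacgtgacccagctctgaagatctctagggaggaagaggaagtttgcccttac
Cd200: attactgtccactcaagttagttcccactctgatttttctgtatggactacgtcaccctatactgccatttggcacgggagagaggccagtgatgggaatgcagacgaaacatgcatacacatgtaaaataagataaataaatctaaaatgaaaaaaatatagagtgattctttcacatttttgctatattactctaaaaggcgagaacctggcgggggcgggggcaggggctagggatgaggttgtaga

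Both strands were searched for TGANTCA, the core of an AP-1 site, for GGAAA, the core of an NFAT site (TTTCC on the other strand), and for TTCNNNGAA, the core of a STAT site. AP-1 and NFAT are factors that PMA/I activates, and STAT5 acts downstream of IL-2. The *Havcr2* window held 1 AP-1 core, 200 bases before the start, and 6.75% of the 32851 RefSeq windows of the same length hold this core. The *Pdcd1* window held 2 adjoining NFAT cores, 28 and 23 bases before the start, while *Btla* and *Cd200* held none of the 3 motifs. Windows were at hand for 7 of the 10 genes (*Ctla4*, *Tigit* and *Cd5* beside these 4), of which 1 held the AP-1 core, 3 the NFAT core (*Pdcd1*, *Ctla4* and *Tigit*) and 0 the STAT core. The RefSeq start of *Ctla4* lay 22025 bases after the start of the gene model given above, so its window lies within that model. Over all windows the NFAT core was found in 55.6% and the STAT core in 7.02%. A short core in a short window describes the sequence only and says nothing about binding.

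The costimulatory receptors were abundant in every library. *Cd28* stood at 95.1, 66.3 and 103 TPM in the 3 TB IL-2 cultures, at 233, 246 and 168 TPM in TB IL-2nil, at 197, 162 and 161 TPM in TB+ IL-2, and at 301, 185 and 293 TPM in TB+ IL-2nil. TB IL-2 was thus the low group for *Cd28*, below every culture of the other 3 groups, whose ranges overlapped from neighbour to neighbour. *Icos* stood at 155, 124 and 75.4 TPM in TB IL-2, at 214, 172 and 87.4 TPM in TB IL-2nil, at 178, 178 and 97.5 TPM in TB+ IL-2, and at 245, 184 and 149 TPM in TB+ IL-2nil. For *Icos* every group overlapped the next, and the third culture was the low point of each group.

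The inhibitory receptors of the CD28 family and its relative BTLA behaved unlike each other. *Ctla4* stood at 11.8, 18.0 and 31.1 TPM in TB IL-2, at 38.5, 113 and 165 TPM in TB IL-2nil, at 60.5, 161 and 27.3 TPM in TB+ IL-2, and at 109.8, 72.4 and 99.3 TPM in TB+ IL-2nil. The cultures of TB IL-2nil and of TB+ IL-2 spread widely for *Ctla4*, and only TB IL-2 lay below all cultures of TB IL-2nil and TB+ IL-2nil. *Pdcd1* stood at 4.22, 0.642 and 0.360 TPM in TB IL-2, at 4.97, 1.27 and 0.664 TPM in TB IL-2nil, at 124, 87.3 and 52.9 TPM in TB+ IL-2, and at 119.8, 69.1 and 58.1 TPM in TB+ IL-2nil. All 6 stimulated cultures were far above the 6 unstimulated ones for *Pdcd1*, and within each state the groups with and without IL-2 overlapped. *Btla* stood at 15.9, 22.8 and 19.8 TPM in TB IL-2, at 18.7, 16.4 and 23.0 TPM in TB IL-2nil, at 124, 84.4 and 51.9 TPM in TB+ IL-2, and at 249, 134 and 130.1 TPM in TB+ IL-2nil. The levels of *Btla* before PMA/I lay in a narrow band shared by both groups, and after PMA/I every culture without IL-2 exceeded every culture with it.

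Among the remaining inhibitory receptors, 2 stayed at low levels throughout. *Lag3*, whose product binds MHC class II, stood at 0.829, 1.32 and 1.85 TPM in TB IL-2, at 1.83, 4.88 and 3.82 TPM in TB IL-2nil, at 5.62, 13.8 and 8.35 TPM in TB+ IL-2, and at 7.57, 15.5 and 12.7 TPM in TB+ IL-2nil. *Tigit*, whose product competes with CD226 for CD155, stood at 1.69, 4.24 and 4.09 TPM in TB IL-2, at 5.69, 6.60 and 9.87 TPM in TB IL-2nil, at 6.26, 19.9 and 6.45 TPM in TB+ IL-2, and at 7.85, 17.4 and 11.9 TPM in TB+ IL-2nil. For *Lag3* all stimulated cultures exceeded all unstimulated ones, whereas for *Tigit* the stimulated cultures overlapped those of TB IL-2nil. *Havcr2* stood at 1.75, 0.380 and 0.207 TPM in TB IL-2, at 0.202, 0.146 and 0.255 TPM in TB IL-2nil, at 73.4, 52.2 and 38.6 TPM in TB+ IL-2, and at 54.0, 38.6 and 44.9 TPM in TB+ IL-2nil. It was low in all cultures before PMA/I, and the stimulated groups overlapped.

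The remaining genes encode CD200 and CD5. *Cd200* stood at 1.93, 1.26 and 1.26 TPM in TB IL-2, at 3.61, 3.42 and 3.94 TPM in TB IL-2nil, at 20.4, 15.4 and 4.21 TPM in TB+ IL-2, and at 34.1, 21.3 and 15.2 TPM in TB+ IL-2nil. *Cd5* stood at 89.8, 69.7 and 91.4 TPM in TB IL-2, at 173, 119.7 and 119 TPM in TB IL-2nil, at 157, 116 and 141 TPM in TB+ IL-2, and at 474, 264 and 376 TPM in TB+ IL-2nil. TB IL-2 was the low group for both genes, and TB+ IL-2nil stood above all other cultures for *Cd5* but overlapped TB+ IL-2 for *Cd200*.

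**Figure D1:**
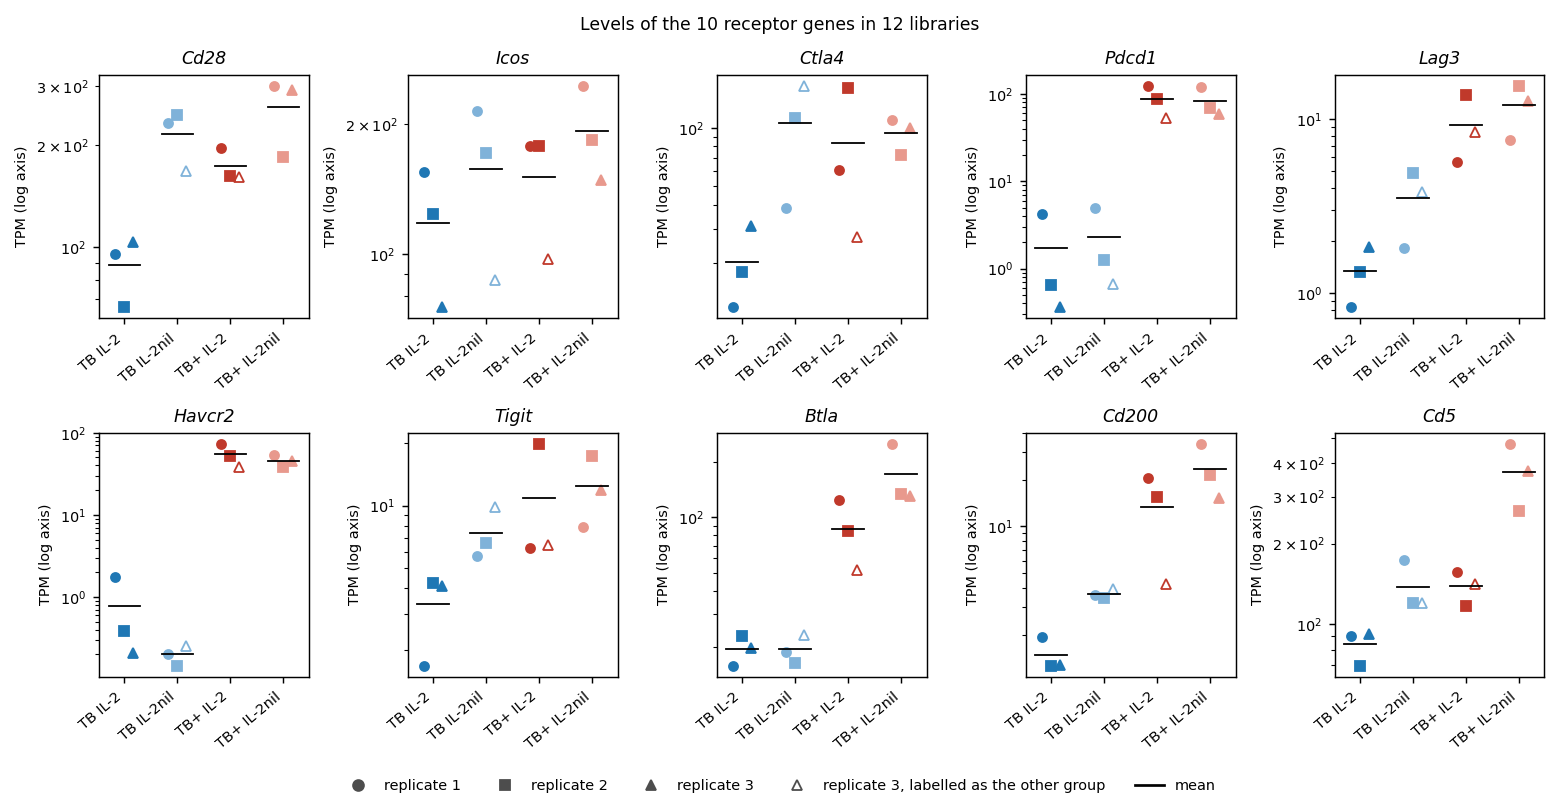
Levels of the 10 receptor genes, with 1 panel per gene, the group on the horizontal axis and TPM on a logarithmic vertical axis. Each point is 1 culture, shaped by replicate number, open triangles are the 2 libraries placed in each other's group, and lines are means. *Pdcd1* and *Havcr2* separate by PMA/I, *Cd28* and *Ctla4* are low in TB IL-2, and *Cd5* is high in TB+ IL-2nil.

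Ranked by mean TPM, *Icos* (118 ± 40.1 TPM, SD, n = 3), *Cd28* (88.2 ± 19.4 TPM) and *Cd5* (83.7 ± 12.1 TPM) led in TB IL-2, and their ranges overlapped. *Cd28* led in TB IL-2nil (216 ± 41.9 TPM) and in TB+ IL-2 (173 ± 20.4 TPM), each time overlapping *Icos*. In TB+ IL-2nil *Cd5* led at 371 ± 105 TPM, ahead of *Cd28* at 259 ± 64.4 TPM, with overlapping ranges. *Havcr2* had the lowest mean of the 10 before PMA/I, at 0.780 ± 0.846 TPM in TB IL-2 and 0.201 ± 0.0545 TPM in TB IL-2nil. In TB IL-2 its range overlapped those of *Pdcd1*, *Lag3*, *Cd200* and *Tigit*. After PMA/I *Lag3* had the lowest mean, at 9.24 ± 4.14 TPM in TB+ IL-2 and 11.9 ± 4.02 TPM in TB+ IL-2nil, where it overlapped *Tigit* and *Cd200*. The summed level of all 10 genes ran from 308 to 378 TPM in TB IL-2, from 581 to 694 TPM in TB IL-2nil, from 590.2 to 946 TPM in TB+ IL-2 and from 1001 to 1602 TPM in TB+ IL-2nil.

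The first comparison asked what IL-2 did to these receptors in T-blast cells before PMA/I, as TB IL-2 minus TB IL-2nil. *Cd28*, *Ctla4* and *Cd5* were lower where IL-2 was present. The mean level of *Cd28* was 2.44-fold higher without IL-2, that of *Ctla4* 5.20-fold higher and that of *Cd5* 1.64-fold higher. The log2 difference was −1.28 (SE 0.24, adjusted P = 0.00218) for *Cd28*, −2.20 (SE 0.64, adjusted P = 0.0186) for *Ctla4* and −0.70 (SE 0.24, adjusted P = 0.0378) for *Cd5*, by limma on log2(TPM + 1) with Benjamini-Hochberg adjustment over all genes tested. None of the 10 genes passed as higher with IL-2. Of all genes tested, 39.6% passed, 22.3% lower with IL-2 and 17.3% higher. In bulk RNA, fewer cells with a transcript and less of it per cell cannot be told apart.

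The other 7 genes did not pass in this comparison. *Lag3* differed by −0.91 (SE 0.36, adjusted P = 0.0656), *Tigit* by −0.98 (SE 0.43, adjusted P = 0.0937) and *Cd200* by −0.91 (SE 0.44, adjusted P = 0.123) in log2 units (limma). For *Tigit* and *Cd200* the groups still did not overlap, with all TB IL-2 cultures below all TB IL-2nil cultures. With the replicate number as a block, *Lag3* (adjusted P = 0.00285, limma) and *Tigit* (adjusted P = 0.0255) passed as well. *Cd200* passed in a fit of only the groups compared (adjusted P = 0.0074, limma) and without the library labelled TB IL-2nil replicate 3 (adjusted P = 0.0198). *Icos* differed by −0.38 (adjusted P = 0.450), *Pdcd1* by −0.32 (adjusted P = 0.694), *Havcr2* by 0.47 (adjusted P = 0.243) and *Btla* by 0.0073 (adjusted P = 0.995), with a 95% interval of −0.71 to 0.73 for *Btla*. Past 3-fold lower were *Ctla4* here and 2.73% of all genes, and the groups of 5 genes did not overlap, all lower, as for 30.4% of all genes. The median difference of the 10 was −0.80, against −0.13 over all genes.

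The call for *Ctla4* depended on single libraries, since it was lost without TB IL-2 replicate 1 (−1.88, adjusted P = 0.0597, limma), without TB IL-2 replicate 2 (−2.17, adjusted P = 0.0518), without TB IL-2nil replicate 2 (−2.03, adjusted P = 0.0585) and without the library labelled TB+ IL-2 replicate 3 (−1.76, adjusted P = 0.0682). The call for *Cd5* was lost without any of the 3 TB IL-2 libraries, TB IL-2nil replicate 1 or 2, or the library labelled TB IL-2nil replicate 3, at adjusted P from 0.0507 to 0.139, while *Cd28* passed in all 20 alternatives other than the labelled placement. With both libraries left out, *Cd28* (−1.46, adjusted P = 0.00502) and *Ctla4* (−1.76, adjusted P = 0.0389) passed by limma and *Cd5* did not (−0.79, adjusted P = 0.0627). As labelled, 0 of the 10 genes passed and 4 had an unadjusted P under 0.05, with *Cd28* at −1.27 (adjusted P = 0.103, limma) and *Ctla4* at −1.35 (adjusted P = 0.389), and 0.121% of all genes passed. The 4 markers of regulatory T cells, which also express *Ctla4*, *Icos* and *Tigit*, summed to 209 to 369 TPM in TB IL-2 and 116 to 139.7 TPM in TB IL-2nil. *Tnfrsf18* (250.4 against 123 TPM) and *Lrrc32* (47.1 against 3.20 TPM) made up most of this sum, whereas the defining gene *Foxp3* stood at 0.958 and 1.05 TPM and *Ikzf2* was at 1.46 against 3.81 TPM without overlap, in the same direction as *Ctla4* (log2 difference −1.05, adjusted P = 0.0965, limma). The 4 B cell markers summed to 5.94 to 10.4 TPM in TB IL-2 and 23.2 to 29.6 TPM in TB IL-2nil. The 7 markers of CD4 T cells summed to 2291 to 2441 TPM in TB IL-2 and 2801 to 2978 TPM in TB IL-2nil, and 4 of them were lower with IL-2, *Cd4* (−1.30, adjusted P = 0.000451, limma), *Cd3d* (−0.93), *Cd247* (−0.81) and *Cd3g* (−0.47), while *Thy1* was higher (0.85). The part of these markers in the results was not tested.

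**Figure D2:**
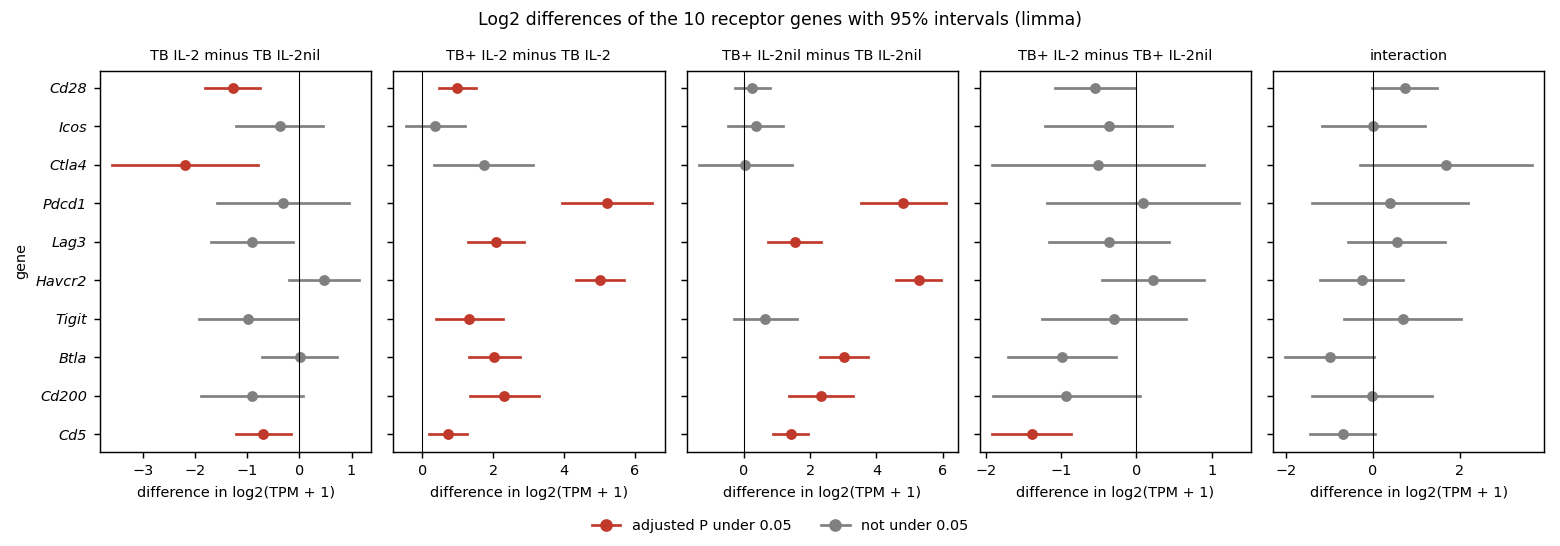
Log2 differences of the 10 genes in the 4 comparisons and the interaction, as points with 95% intervals in log2(TPM + 1) units (limma), red where the adjusted P was under 0.05. The interaction is the response to PMA/I with IL-2 minus the response without it. The differences for *Pdcd1* and *Havcr2* lie between 4.81 and 5.27 in both PMA/I comparisons, and all 10 intervals of the interaction include 0.

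The next comparison asked how PMA/I changed the receptors in cells kept in IL-2, as TB+ IL-2 minus TB IL-2. *Pdcd1* and *Havcr2* changed most, from low levels to means 50.6-fold and 70.2-fold higher. *Cd200*, *Lag3* and *Btla* rose 8.97-fold, 6.94-fold and 4.44-fold in mean TPM, and *Tigit*, *Cd28* and *Cd5* rose by smaller steps of 3.25-fold, 1.97-fold and 1.65-fold. No member fell. The log2 differences were 5.21 (SE 0.58, adjusted P = 8.97e-05) for *Pdcd1*, 5.02 (SE 0.31, adjusted P = 1.36e-06) for *Havcr2*, 2.31 (SE 0.44, adjusted P = 0.00251) for *Cd200*, 2.08 (SE 0.36, adjusted P = 0.00138) for *Lag3* and 2.02 (SE 0.33, adjusted P = 0.000934) for *Btla* by limma. These 5 genes were past 3-fold on the log2(TPM + 1) scale, on which a low starting level makes a change look smaller.

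*Tigit* (1.33, SE 0.43, adjusted P = 0.035), *Cd28* (0.99, SE 0.24, adjusted P = 0.00928) and *Cd5* (0.72, SE 0.24, adjusted P = 0.0377) passed by limma at a smaller difference. *Ctla4* differed by 1.73 (SE 0.64, adjusted P = 0.0553, limma), and its groups overlapped because TB+ IL-2 replicate 3 was at 27.3 TPM. *Icos* differed by 0.36 (SE 0.38, adjusted P = 0.493, limma), with a 95% interval of −0.48 to 1.20. Over all genes tested, 35.1% passed in either direction and 11.8% rose, and 8 of these 10 did, while 3.94% of all genes and 5 of these 10 rose past 3-fold. In 8 genes all TB+ IL-2 cultures lay above all TB IL-2 cultures, which holds for 16.6% of all genes, and the median difference was 1.88 against −0.22 over all genes.

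With both libraries left out the count stayed at 8, but *Ctla4* (2.33, adjusted P = 0.0131, limma) passed in place of *Cd5* (0.70, adjusted P = 0.0962). *Ctla4* also passed without the library labelled TB IL-2nil replicate 3 alone (2.33, adjusted P = 0.0161, limma) and without the unstimulated TB IL-2nil replicate 1 (1.73, adjusted P = 0.0338). *Tigit* was no longer past the threshold without TB IL-2 replicate 1 (1.01, adjusted P = 0.130, limma), TB IL-2 replicate 3 (1.47, adjusted P = 0.052) or TB+ IL-2 replicate 2 (0.83, adjusted P = 0.128). *Cd5* was not past it without any of the 3 TB IL-2 libraries, without TB+ IL-2 replicate 1 or without the library labelled TB IL-2nil replicate 3, at adjusted P from 0.0606 to 0.121 (limma). *Pdcd1*, *Havcr2*, *Lag3*, *Btla* and *Cd200* passed in all 20 alternatives other than the labelled placement, and *Cd28* in all but quantile normalization (0.74, adjusted P = 0.0531, limma) and TPM with no further scaling (0.91, adjusted P = 0.0991). As labelled, all 10 differences were again above 0, but 0 genes passed by limma, with adjusted P from 0.0676 to 0.785 and 8 unadjusted P under 0.05, and 0.498% of all genes passed.

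The same question was asked of cells without IL-2, as TB+ IL-2nil minus TB IL-2nil. *Havcr2* and *Pdcd1* again stood out, with mean levels 228-fold and 35.7-fold higher after PMA/I, the first of these against only 0.146 to 0.255 TPM before it. *Btla* rose 8.82-fold, *Cd200* 6.43-fold, *Lag3* 3.40-fold and *Cd5* 2.70-fold in mean TPM. The log2 differences were 5.27 (SE 0.31, adjusted P = 4.98e-07) for *Havcr2*, 4.81 (SE 0.58, adjusted P = 4.21e-05) for *Pdcd1*, 3.02 (SE 0.33, adjusted P = 2.11e-05) for *Btla* and 2.33 (SE 0.44, adjusted P = 0.000922) for *Cd200* by limma. *Lag3* at 1.53 (SE 0.36, adjusted P = 0.00343) and *Cd5* at 1.41 (SE 0.24, adjusted P = 0.000428) passed below 3-fold on this scale.

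*Cd28* and *Ctla4*, which were higher without IL-2 before PMA/I, did not pass here, nor did *Icos* and *Tigit*. *Cd28* differed by 0.25 (SE 0.24, adjusted P = 0.383), *Tigit* by 0.64 (SE 0.43, adjusted P = 0.218), *Icos* by 0.35 (SE 0.38, adjusted P = 0.441) and *Ctla4* by 0.042 (SE 0.64, adjusted P = 0.963) by limma. The interval for *Ctla4* was wide, from −1.36 to 1.44, so a change of more than 2-fold in either direction is within it. With quantile normalization *Tigit* passed (1.10, adjusted P = 0.0438, limma). Of all genes tested, 61.2% passed in either direction, 20.1% rose and 7.78% rose past 3-fold, against 6, 6 and 4 of the 10. The groups did not overlap for 6 genes, all higher after PMA/I, as for 21.8% of all genes. The median difference was 1.47 against −0.38 over all genes, a shift that quantile normalization reduced to −0.14 and that TPM with no further scaling extended to −0.78, and under both scalings the differences of *Cd28*, *Icos* and *Ctla4* turned below 0.

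The same 6 genes passed with both libraries left out (limma), and no left-out library changed these calls. *Cd5* missed the threshold with no further scaling (0.85, adjusted P = 0.0563, limma). As labelled, *Btla* (2.64, adjusted P = 0.0383), *Cd200* (2.30, adjusted P = 0.0328) and *Cd5* (1.33, adjusted P = 0.0312) passed by limma, where 5.38% of all genes did, and *Havcr2* (3.61, adjusted P = 0.147) and *Pdcd1* (3.14, adjusted P = 0.183) did not. The summed B cell markers were lower after PMA/I in both IL-2 states, at 5.49 to 12.7 TPM in TB+ IL-2nil and 2.36 to 3.31 TPM in TB+ IL-2. B cells also express *Btla* and *Cd200*, which rose, and the part of B cells in these rises was not tested.

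**Figure D3:**
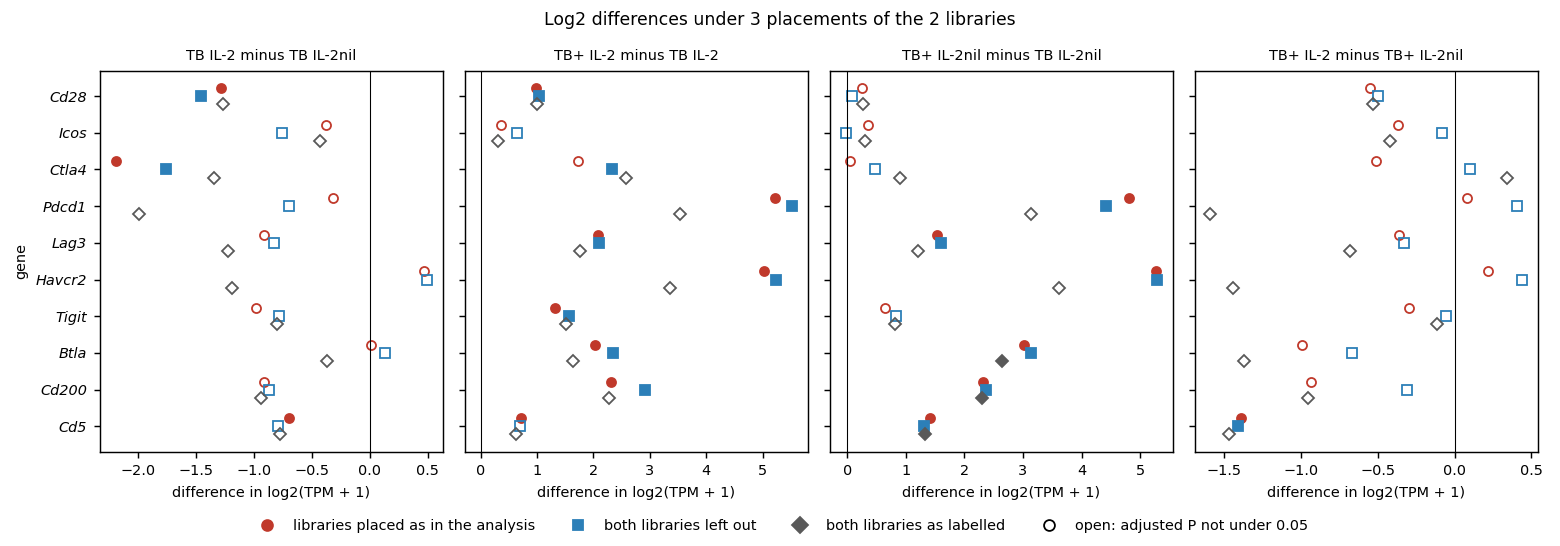
Log2 differences of the 10 genes, in log2(TPM + 1) units, in the 4 comparisons under 3 placements of the 2 libraries whose *Il2* level went against their label. Circles give both in each other's group, squares both left out and diamonds both as labelled, filled where the adjusted P was under 0.05 (limma). As labelled, the PMA/I differences of *Pdcd1* and *Havcr2* are 3.14 to 3.61 rather than 4.81 to 5.27, and the filled diamonds are *Btla*, *Cd200* and *Cd5* for PMA/I without IL-2.

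After PMA/I the effect of IL-2, as TB+ IL-2 minus TB+ IL-2nil, was tested in the same way. *Cd5* was lower with IL-2, at 138 ± 20.6 TPM against 371 ± 105 TPM (SD, n = 3), a 2.69-fold higher mean level without IL-2. Its log2 difference was −1.39 (SE 0.24, adjusted P = 0.00278, limma). *Btla* differed by −0.99 (SE 0.33, adjusted P = 0.0522, limma) without overlap between the groups, and passed with the replicate number as a block (adjusted P = 0.0386). The remaining 8 genes did not pass, with *Cd28* at −0.55 (adjusted P = 0.130), *Cd200* at −0.93 (adjusted P = 0.160), *Ctla4* at −0.51 (adjusted P = 0.610), *Icos* at −0.37 (adjusted P = 0.525), *Lag3* at −0.36 (adjusted P = 0.510), *Tigit* at −0.30 (adjusted P = 0.668), *Havcr2* at 0.22 (adjusted P = 0.660) and *Pdcd1* at 0.084 (adjusted P = 0.941) by limma. The 95% interval was −0.46 to 0.89 for *Havcr2* and −1.19 to 1.36 for *Pdcd1*, so that for *Pdcd1* it holds a difference of 2-fold either way.

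Of all genes tested, 21.3% passed after PMA/I and 8.4% were lower with IL-2, as was 1 of the 10, while 12.9% were higher and 0 of the 10. The groups did not overlap, with IL-2 lower, for 18.3% of all genes and for *Cd5* and *Btla* here. The median difference was −0.44 against −0.042 over all genes. *Cd5* passed with both libraries left out (−1.41, adjusted P = 0.0194, limma) but not as labelled (−1.47, adjusted P = 0.0545), where 0 of the 10 passed, 2 had an unadjusted P under 0.05 and 0.217% of all genes passed. *Btla* was at −0.67 (adjusted P = 0.209, limma) with both left out, and at −1.29 (adjusted P = 0.023) without TB+ IL-2 replicate 1. *Cd28* passed without TB+ IL-2nil replicate 2 (−0.78, adjusted P = 0.0416, limma). The B cell markers, at 2.36 to 3.31 TPM in TB+ IL-2 and 5.49 to 12.7 TPM in TB+ IL-2nil, moved in the same direction as *Cd5* and *Btla*, as did *Cd4* (−0.82, adjusted P = 0.0103, limma) and *Cd3d* (−0.61), the 2 of 7 CD4 T cell markers that were lower with IL-2 here (*Thy1* was higher, 0.81), and their part in the result was not tested.

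The difference between the responses to PMA/I with and without IL-2 was tested directly as an interaction. By limma, 0 of the 10 genes passed, and 0 had an unadjusted P under 0.05 (2 by limma-trend, of which 0 passed), where 4.23% of all genes passed. Estimates ran from −0.997 for *Btla* (95% interval −2.01 to 0.019, adjusted P = 0.225, limma) to 1.69 for *Ctla4* (−0.30 to 3.67, adjusted P = 0.289). *Cd28* was at 0.73 (−0.019 to 1.49, adjusted P = 0.229, limma) and *Cd5* at −0.69 (−1.44 to 0.054, adjusted P = 0.249). For *Havcr2* the estimate was −0.25 (−1.21 to 0.70, adjusted P = 0.758, limma). The intervals of all 10 genes reach past 1 or −1, a 2-fold difference in response. A response that differs by that much between the IL-2 states is thus not excluded for any of them with 3 cultures per group.

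The balance of inhibitory and costimulatory transcripts within a library does not depend on scaling between libraries. The summed TPM of *Ctla4*, *Pdcd1*, *Btla*, *Lag3*, *Havcr2* and *Tigit*, divided by that of *Cd28* and *Icos*, was 0.144 to 0.321 in TB IL-2 and 0.157 to 0.795 in TB IL-2nil. After PMA/I it was 0.716 to 1.23 in TB+ IL-2 and 0.809 to 1.004 in TB+ IL-2nil. Only TB IL-2nil replicate 3, at 0.795 and 1 of the 2 libraries placed against their label, reached into the range of the stimulated cultures. *Ctla4* made up 12.4% to 30.1% of the *Cd28* level in TB IL-2, 16.6% to 98.4% in TB IL-2nil, 16.9% to 99.3% in TB+ IL-2 and 33.9% to 39.1% in TB+ IL-2nil. These ratios are descriptions and were not tested.

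**Figure D4:**
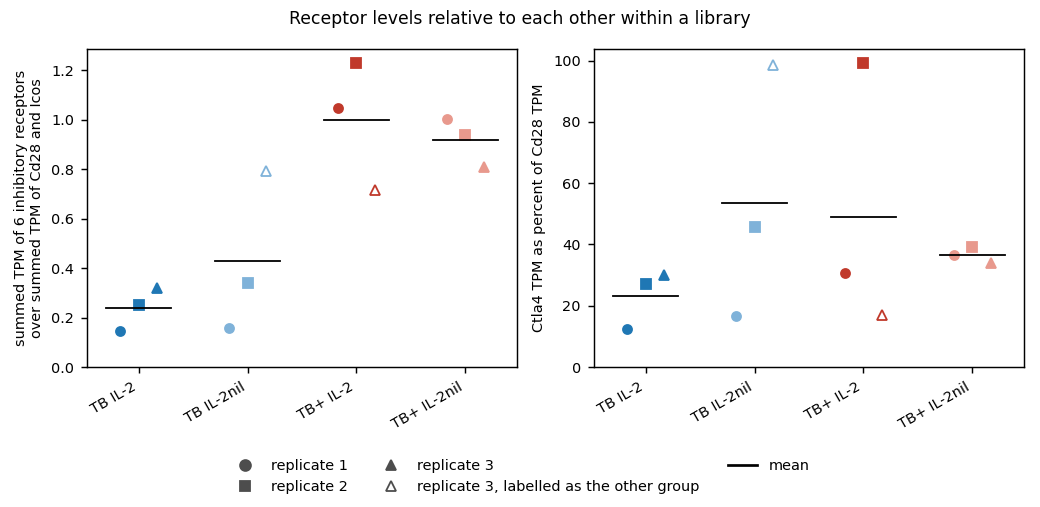
Ratios between receptor levels within each library, with the group on the horizontal axis, 1 point per culture and lines for means. The left panel gives the summed TPM of 6 inhibitory receptors over that of *Cd28* and *Icos*, and the right panel gives *Ctla4* as a percent of *Cd28*. The left ratio is at most 0.321 in TB IL-2 and at least 0.716 in both TB+ groups, and the right ratio spreads from 16.6% to 98.4% within TB IL-2nil.

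The ligands of these receptors were also measured in the same libraries, and 10 of 13 passed the filter on low values (not *Fgl1*, *Nectin2* and *Nectin3*). *Cd274*, which encodes the PD-1 ligand PD-L1, rose with PMA/I from 10.8 to 162 TPM with IL-2 (log2 difference 3.74, SE 0.35, adjusted P = 2.51e-05, limma) and from 13.5 to 367 TPM without it (4.69, SE 0.35, adjusted P = 2.34e-06), as means of 3 cultures. *Pdcd1lg2*, the gene for PD-L2, rose by 2.66 and 2.73 on the log2 scale. *Icosl*, the ligand gene of ICOS, fell from 7.37 to 0.861 TPM with IL-2 and from 10.3 to 0.619 TPM without it. With IL-2 the summed B cell markers stood at 5.94 to 10.4 TPM before PMA/I and 2.36 to 3.31 TPM after it. Without IL-2 these markers stood at 23.2 to 29.6 TPM before PMA/I and 5.49 to 12.7 TPM after it. The part of B cells in the fall of *Icosl* was not tested. *Tnfrsf14*, which encodes the BTLA ligand HVEM, was lower with IL-2 both before PMA/I (−1.41) and after it (−0.70), and fell by 0.97 with PMA/I in cells without IL-2. In those cells *Lgals9*, a reported TIM-3 ligand gene, fell by 1.78 and *Ceacam1* by 0.50, the latter from a mean of only 0.704 TPM. The counts higher and lower were 0 and 1 of 10 for IL-2 before PMA/I, 2 and 1 for PMA/I with IL-2, 2 and 4 for PMA/I without IL-2 (the 6 genes named), and 0 and 2 for IL-2 after PMA/I, where *Cd274* differed by −1.18. Of all genes tested, the shares higher and lower were 17.3% and 22.3%, 11.8% and 23.3%, 20.1% and 41.1%, and 12.9% and 8.4% in that order. Their median differences were −0.34, 0.0096, −0.20 and 0.11 in that order, beside −0.13, −0.22, −0.38 and −0.042 over all genes tested.

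Of 16 other coreceptors of T cells, 13 were above the filter. Before PMA/I, 9 of 13 passed as lower with IL-2 (22.3% of all genes) and 0 as higher, led by *Cd7* (7.17 against 52.9 TPM, log2 difference −2.68), *Cd101* (−2.63), *Slamf6* (−2.28), *Vsir* (−1.87), which encodes the inhibitory receptor VISTA, and *Cd84* (−1.68). After PMA/I, 5 of 13 passed as lower with IL-2 (8.4% of all genes) and 0 as higher, namely *Cd7* (−2.38), *Slamf6* (−1.47), *Vsir* (−1.39), *Cd6* (−1.07), a relative of *Cd5*, and *Cd2* (−0.61). *Cd160* (0.59) and *Lair1* (0.66) did not pass there, though every culture with IL-2 was above every culture without it. PMA/I raised 6 and lowered 1 with IL-2, beside 11.8% and 23.3% of all genes, among them *Slamf1* (15.5 to 396 TPM, 4.55), *Cd160* (3.95), which shares the ligand HVEM with BTLA, *Crtam* (3.65), *Vsir* (2.57) and *Cd84* (1.86). Without IL-2 PMA/I raised 6 and lowered 4, beside 20.1% and 41.1% of all genes, with *Slamf1* at 5.68, *Crtam* at 3.15, *Cd160* at 2.75, *Cd226*, the activating counterpart of TIGIT, at −2.27 and *Vsir* at 2.09. The medians were −0.97 and −0.66 for IL-2 before and after PMA/I, and 0.64 and 0.25 for PMA/I with and without IL-2. Those over all genes tested were −0.13, −0.042, −0.22 and −0.38 in that order.

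The genes for signalling partners of the receptors that passed for PMA/I were lower after it. All 15 listed genes were tested, in a list that was shortened by 1 gene after its values were seen, so its counts and medians are descriptions. With PMA/I 10 fell in the presence of IL-2 and 8 in its absence, with 0 that rose in either. Of all genes, 23.3% and 41.1% fell and 11.8% and 20.1% rose. *Ptpn11*, which encodes the phosphatase SHP-2, differed by 0.026 and 0.068 and did not pass. *Grap2*, an adaptor that binds CD28, fell from 126 to 23.0 TPM with IL-2 (log2 difference −2.37) and from 203 to 18.4 TPM without it (−3.45). *Pik3r1*, the regulatory subunit of the kinase that CD28 and ICOS recruit, fell by 1.64 and by 2.54, *Rasa1* by 1.69 and by 1.49, and *Ubash3a* by 2.58 and by 3.14. *Ptpn6*, which encodes the phosphatase SHP-1, fell by 1.303 with IL-2, and *Dok2* by 1.42 without it. For IL-2 before PMA/I 1 gene was higher (*Ap2m1*, which takes part in CTLA-4 endocytosis, 0.65) and 1 lower (*Pik3r1* at −1.04), and after PMA/I 1 was higher (*Ap2m1*, 0.66) and 1 lower (*Inpp5d* at −0.73). Of all genes, 17.3% were higher and 22.3% lower with IL-2 before PMA/I, and 12.9% and 8.4% after it. The medians were −0.66 and −0.79 for PMA/I with and without IL-2, and −0.12 and 0.015 for IL-2 before and after PMA/I. Those over all genes tested were −0.22, −0.38, −0.13 and −0.042 in that order. In none of the 3 lists did a gene pass the test of the interaction (limma), which 4.23% of all genes did.

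**Figure D5:**
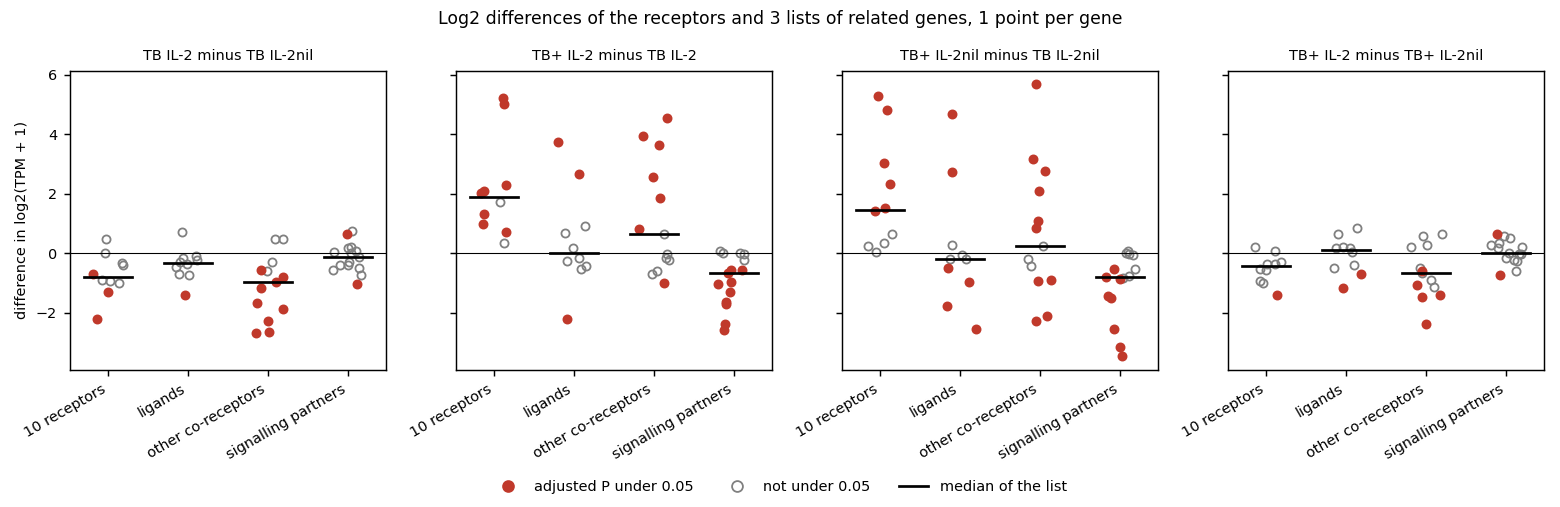
Log2 differences, in log2(TPM + 1) units, of the 10 receptors, 10 ligands, 13 other coreceptors and 15 signalling partners in the 4 comparisons, with 1 point per gene, filled where the adjusted P was under 0.05 (limma), and a line for the median. With PMA/I and IL-2 the median is 1.88 for the receptors and −0.66 for the signalling partners, and before PMA/I the medians of the receptors and other coreceptors are −0.80 and −0.97.

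For 9 of the 10 genes the group means spanned more than 1 on the log2 scale. The genes whose profile over the 12 libraries was most like theirs were sought among all genes tested, leaving out the 10 themselves. The measure was the root mean square difference in log2(TPM + 1) between profiles centred on their own mean. *Tnfsf8*, which encodes CD30 ligand, was nearest to *Pdcd1* at 0.42, followed by *Smim3* at 0.58. *F3* (0.41) and *Olr1* (0.43) were nearest to *Havcr2*, and *Insm1* (0.23) and *Zbtb21* (0.24) to *Btla*. *Kcna3*, a potassium channel gene of T cells, was nearest to *Cd200* at 0.26, followed by *AI504432* at 0.28. *Trim8* and *D930016D06Rik* were nearest to *Cd5* at 0.25 each, and *Usp53* (0.21) and *Usp38* (0.25) to *Cd28*. *Casp6* (0.28) and *Batf* (0.38) came nearest to *Tigit*, and *Gramd1b* (0.35) and *Zfp330* (0.36) to *Lag3*. No gene outside the 10 came close to *Ctla4*, for which *Tuba3a*, a gene with a near-identical copy, and *Nrip1* stood at 0.66.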

How the data were processed

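Total RNA of 12 T-blast cultures, 3 per group, was sequenced by the authors after rRNA depletion. IL-2 was given for 2 days before it was withdrawn according to the labels, and for 30 h according to the methods. The deposited tables give FPKM for 24439 gene names, made by the authors with Trimmomatic 0.32, HISAT2 2.1.0 (mm9) and StringTie 1.3.3 on RefSeq models, with no normalization between libraries. The methods name TPM, but the values sum to 193815 to 420487 per library and the headers name FPKM. Whether strand was used in counting is not given in the sources used here.

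Here FPKM were rescaled to sum to 1000000 TPM per library. A gene was tested if any library had it over 1 TPM, and a common 75th percentile was set for the libraries. A limma fit (version 3.58.1, R 4.3.3) of log2(TPM + 1) held the 4 groups without a block, leaving 8 residual degrees of freedom, with Benjamini-Hochberg adjustment over 12442 genes. A gene passed at an adjusted P under 0.05, and genes past 3-fold were counted beside. The fit was tested on simulated data. Python 3.11.15 was used for loci, sequences and figures.

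The 10 genes, the lists of related genes and markers, and the placement of the 2 libraries were chosen with earlier results of these data known. After its values were seen, 1 gene was left out of the list of signalling partners and is not reported here. Named are the 10 genes and up to 5 genes per list with the largest difference among those that passed. The 2 genes outside the 10 with the nearest profile are also named. *Ptpn11*, *Lair1*, *Cd160* after PMA/I, the single cell type markers and the marker sums by replicate number were named after their values were seen. Same-numbered libraries shared their deviations from the group means, with 18 correlations of 0.101 to 0.531, against −0.416 to 0.171 for the 36 pairs of different numbers. The numbers were used to pair the libraries in the replicate block only, and the P-values of the main fit leave this pairing out. The numbers come from the labels, and nothing says what libraries of 1 number share. Alternatives were the labelled placement, both libraries left out, another pseudocount, no filter, 2 other scalings, limma-trend, the replicate block, only the groups compared, and each library left out.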

Additional observations from a re-analysis of the deposited data

How the results depend on the processing

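Of the 10 receptor genes, 3 passed for IL-2 before PMA/I, 8 for PMA/I with IL-2, 6 for PMA/I without IL-2, 1 for IL-2 after PMA/I and 0 for the interaction. With the 2 libraries as labelled the counts were 0, 0, 3, 0 and 0, where most of the tested genes lost their call as well, and with both left out they were 2, 8, 6, 1 and 0. With the replicate block the counts moved to 5 before PMA/I and 2 after it, by the gains of *Lag3*, *Tigit* and *Btla* given above, and the block changed no other call. *Cd5* lost its call before PMA/I also with no filter (−0.66) and no further scaling (−0.78), and for PMA/I with IL-2 with quantile normalization (0.51) and no further scaling (0.64), where *Tigit* lost its call with no filter (1.45) and in a fit of only the groups compared (1.33). After PMA/I the count was 0 with no further scaling, where *Cd5* was at −0.99 (adjusted P = 0.0976, limma), and 2 with limma-trend. Leaving out 1 library gave 1 to 5 before PMA/I, 6 to 9 and 6 to 6 for PMA/I with and without IL-2, 1 to 2 after PMA/I and 0 to 0 for the interaction. Before PMA/I the count was 1 without TB IL-2 replicate 1, TB IL-2 replicate 2 or TB IL-2nil replicate 2, and 5 without TB+ IL-2 replicate 2, and after PMA/I it was 2 without TB+ IL-2 replicate 1 or TB+ IL-2nil replicate 2.

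Scaling moved the median of all genes, most for PMA/I without IL-2, from −0.38 to −0.14 (quantile normalization) and −0.78 (no further scaling), and for IL-2 after PMA/I from −0.042 to −0.072 and 0.23. Of 1040 member values under alternatives, 929 kept direction and side of the threshold, 45 lost their call, 17 gained one and 49 turned in sign, none of the latter called in either fit. As labelled, *Havcr2* (−1.19) and *Btla* (−0.37) turned before PMA/I and *Ctla4* (0.34), *Pdcd1* (−1.59) and *Havcr2* (−1.44) after it. With both left out, *Icos* turned for PMA/I without IL-2 (−0.029), *Ctla4* after PMA/I (0.099) and *Cd200* in the interaction (0.56). Quantile normalization turned *Cd28* (−0.28), *Icos* (−0.17) and *Ctla4* (−0.24) for PMA/I without IL-2. No further scaling turned these to −0.30, −0.20 and −0.51, *Btla* before PMA/I to −0.072, *Icos* and *Tigit* after PMA/I to 0.023 and 0.048, and *Havcr2* and *Cd200* in the interaction to 0.089 and 0.42. In the interaction, no filter turned *Icos* (−0.038) and log2(TPM + 0.1) turned *Cd200* (0.26). Leaving out 1 library turned values of 11 results. These ranged from −0.91 to 0.22 (*Pdcd1*) and −0.11 to 0.14 (*Btla*) before PMA/I, from −0.027 to 0.61 (*Icos*) and −0.56 to 0.47 (*Ctla4*) for PMA/I without IL-2, from −1.16 to 0.096 (*Ctla4*), −0.20 to 0.41 (*Pdcd1*) and −0.019 to 0.44 (*Havcr2*) after PMA/I, and from −0.28 to 0.39 (*Icos*), −0.13 to 0.99 (*Pdcd1*), −0.49 to 0.11 (*Havcr2*) and −0.42 to 0.60 (*Cd200*) in the interaction. The causes of these changes were not tested.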

Other observations

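Levels of 4 of the 10 genes followed the replicate number in every group. *Icos* and *Pdcd1* were lowest in replicate 3 of all 4 groups, and *Lag3* and *Tigit* were lowest in replicate 1 of all 4, while *Pdcd1* was also highest in replicate 1 of all 4. With PMA/I and IL-2, for example, *Pdcd1* stood at 124 TPM in replicate 1 and 52.9 TPM in replicate 3, and *Lag3* at 5.62 TPM in replicate 1 and 13.8 TPM in replicate 2. Of all genes tested, 19.1% had the same number lowest in all 4 groups and 32.7% the same number lowest or highest, so the share among the 10 is a description of these libraries. What libraries of 1 number share is not known, and whether the pattern comes from the cultures or their handling was not tested.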
